A study of Mus musculus with 4 samples.

Results

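The 10 genes described here encode lysyl oxidases, elastic fibre proteins and a further matrix protein, Mgp. The lysyl oxidases are Lox, Loxl1, Loxl2, Loxl3 and Loxl4, and the fibre proteins are Eln, Fbn1, Fbln5 and Mfap5. All gene probes of the array that carry 1 of these 10 symbols were used. This gave 14 of 41174 gene probes and 10 of 28477 gene names. Loxl2, Loxl4, Fbn1 and Fbln5 had 2 probes each and the other 6 genes had 1. RNA was measured on 4 Agilent whole-genome mouse arrays with 2 colours. Red carried RNA from a clone of induced pluripotent stem (iPS) cells on 2 arrays and from mouse embryonic fibroblasts (MEFs) on the other 2. Green carried RNA from CGR8.8, a line of embryonic stem (ES) cells, on every array. The iPS cells were 1 clone, collected on day 30 after transduction and grown with 1000 IU/ml of leukemia inhibitory factor (LIF). The MEFs were collected after several passages, and the ES cells were grown with the same amount of LIF. The transduced factors, the strain and the sex of the cells are not given in the sources used here. The labels call the arrays of a group biological replicates without saying that the cultures were separate. Each p-value therefore rests on the spread between arrays within the groups, which may be technical. That spread is 1 estimate per probe, shared by all 4 arrays and moderated across probes. Every value is a bulk signal, in which fewer cells that carry a transcript and less of it per cell cannot be told apart.

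Elastic fibres consist of a core of cross-linked elastin on a scaffold of fibrillin microfibrils. Elastin leaves the cell as soluble tropoelastin, is carried onto the microfibrils by fibulins, and becomes insoluble when lysyl oxidases convert its lysine side chains to aldehydes that condense into cross-links. The same copper-dependent enzymes cross-link fibrillar collagens. Fibroblasts and smooth muscle cells are the main producers of these proteins, and pluripotent cells make little fibrillar matrix.

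Probes of 3 lysyl oxidases are shown to compare the family's probes: that of Loxl1, the dimmer of the Loxl2 pair, and both of Loxl4, whose ratios differed in size. The Loxl2 ratios that lead below come from its brighter probe, which is not printed. Positions are those of the array annotation on mouse build mm8, which has no matching genome or exon annotation among the files used here, so no exon is assigned. The Loxl1 probe lies at chr9:58088900-58088959 on the minus strand and the dimmer Loxl2 probe at chr14:68427414-68427473 on the plus strand. The dimmer Loxl4 probe lies at chr19:42653346-42653405 on the minus strand. The brighter one is annotated at chr19:42648688-42650840 on the minus strand, an interval of 2153 bases for a probe of 60 bases. The sequences are printed as deposited, in lower case, 5′ to 3′:
Loxl1 probe: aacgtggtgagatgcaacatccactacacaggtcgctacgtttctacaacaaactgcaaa
Loxl2 dimmer probe: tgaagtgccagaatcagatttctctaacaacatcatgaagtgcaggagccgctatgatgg
Loxl4 brighter probe: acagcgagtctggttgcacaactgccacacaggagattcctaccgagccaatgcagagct
Loxl4 dimmer probe: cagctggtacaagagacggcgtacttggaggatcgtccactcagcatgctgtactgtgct
Across the 87 pairs of probes of different member genes, the longest run of bases shared on either strand was 10, so the probes of the family were distinct in sequence.

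Promoter sequences from RefSeq (build GRCm38.p6) were found for 3 of the 10 genes, Fbn1, Fbln5 and Loxl4. Fbn1 and Loxl4 are shown because both were lower in iPS cells than in MEFs and in ES cells. Each line gives the 250 bases before the annotated start, with matches to GGGCGG on the strand of the gene in capitals (no match lay on the other strand). The Fbn1 window is chr2:125506439-125506688 and the Loxl4 window chr19:42612807-42613056, both on the minus strand:
Fbn1 promoter: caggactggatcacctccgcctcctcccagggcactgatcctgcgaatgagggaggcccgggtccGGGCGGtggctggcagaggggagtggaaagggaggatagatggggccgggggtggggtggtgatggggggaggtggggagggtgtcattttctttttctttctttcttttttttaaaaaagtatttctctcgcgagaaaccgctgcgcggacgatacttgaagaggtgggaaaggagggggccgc
Loxl4 promoter: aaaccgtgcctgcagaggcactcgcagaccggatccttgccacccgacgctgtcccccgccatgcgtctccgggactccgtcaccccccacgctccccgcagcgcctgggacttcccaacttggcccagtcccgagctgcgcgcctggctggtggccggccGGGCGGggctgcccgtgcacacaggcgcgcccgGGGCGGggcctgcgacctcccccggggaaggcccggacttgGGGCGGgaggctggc
GGGCGG, the core of the GC box, occurred at 1 place in the Fbn1 window and at 3 in the Loxl4 window. On either strand it was present in 32.7% of 32851 promoter windows of the same length. The TATA box letters TATAAA and the AP-1 type letters TGANTCA were found in neither window on either strand, and occurred in 12.4% and 6.75% of all windows. The GC content was 59.2% for Fbn1 and 76.0% for Loxl4, against a median of 52.4%. Of the Fbln5 starts, 1 had 2 GGGCGG matches and the other had 0. A match of letters is a description of the window and not a measured binding site.

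Signals are given as the scanner's mean pixel intensity of a spot before background subtraction, where the local background of the member spots was 43 to 62 in red and 10 to 24 in green. Red and green signals come from different dyes and were compared only after normalization, as the log2 ratio of red over green on the same array. Ratios between iPS cells and MEFs are the difference of their ratios over ES cells. The ± values are standard errors of the limma fit with 2 arrays per group. A gene was called higher or lower at a Benjamini-Hochberg adjusted p under 0.05 over 24874 tested probes together with a change of at least 2-fold. Of all gene probes, 61.1% to 63.2% passed the scanner's background test in red and 62% to 63.4% in green. The log2 ratios correlated at 0.9922 between the iPS arrays and 0.9890 between the MEF arrays across probes. All arrays lay on 1 slide and each group held fixed positions on it, and ES RNA was never put in red. Slide position, dye and cell type therefore cannot be told apart in the ratios over ES cells. Slide position and cell type cannot be told apart between iPS cells and MEFs either. For a transcript not well above background in 1 of the cell types, the difference is a lower bound, written as at least N-fold. The bound is the mean level of the brighter group over the detection floor or the dim level, whichever was higher. It uses normalized channel signals that stay open to dye bias. Between iPS cells and MEFs it sets red against red and can exceed the fitted fold, which passes through the ES channel.

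**Figure D1:**
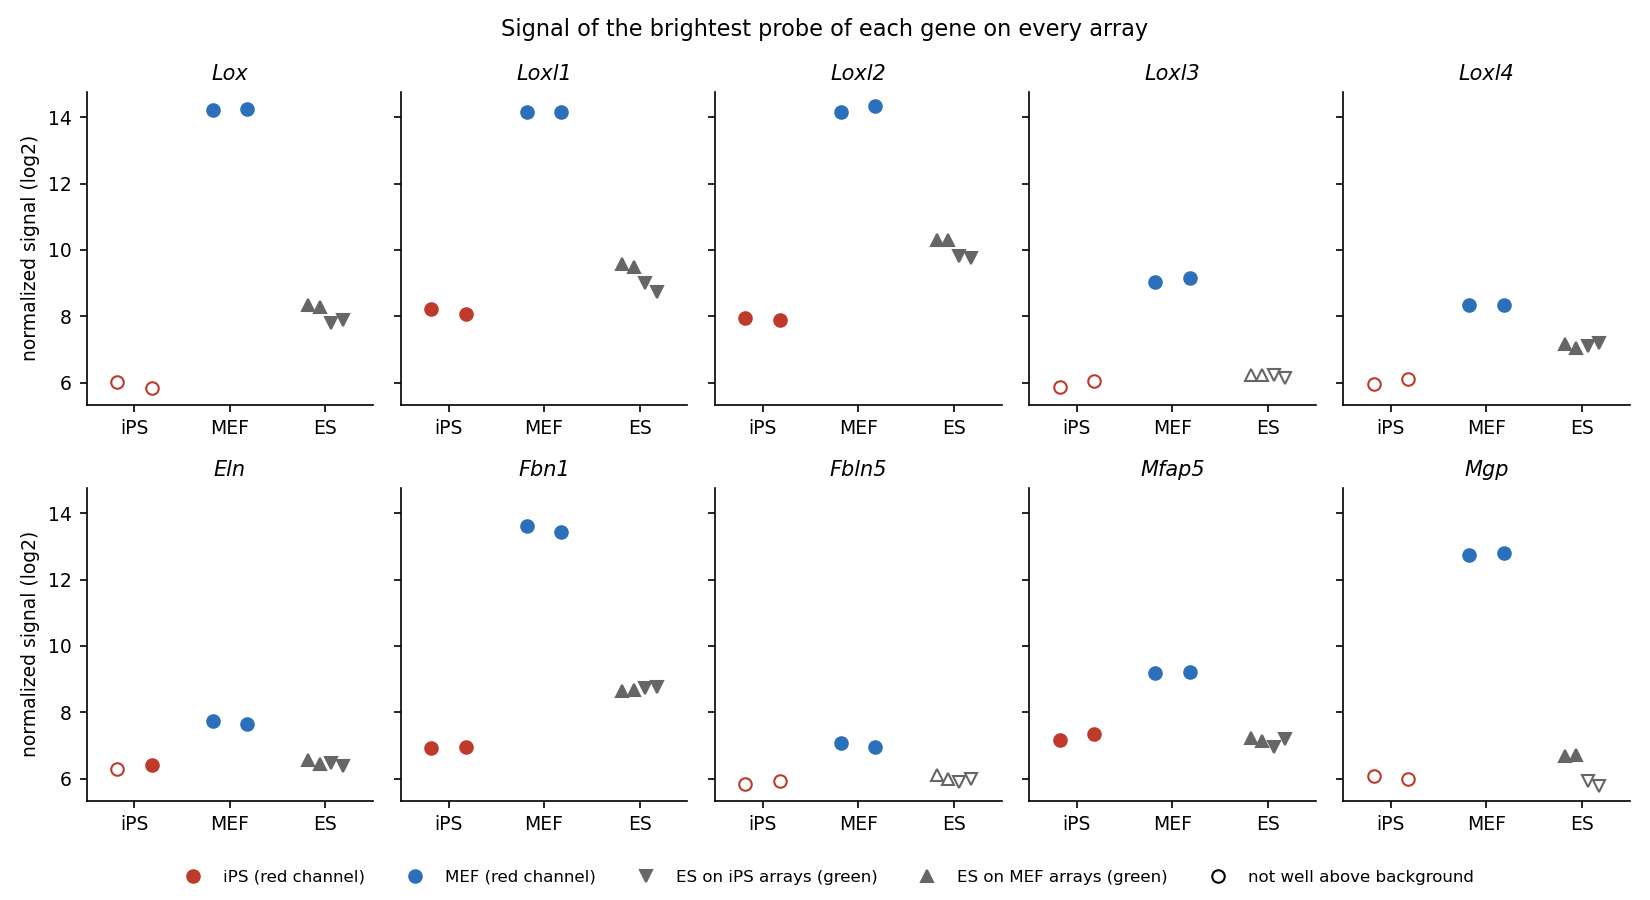
Normalized log2 signal (y axis) of the brightest probe of each of the 10 genes on every array, for iPS cells, MEFs and ES cells (x axis); each point is 1 channel of 1 array, and open symbols were not well above background. The MEF points of all 10 genes lie above the iPS points, and the probes of Lox, Loxl3, Loxl4, Fbln5 and Mgp are open on both iPS arrays.

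Among the lysyl oxidases, Lox is the founding member and acts on both collagen and elastin. Its red signal was 61.1 and 59.3 in iPS cells, against 28200 and 24200 in MEFs. Its green signal from ES cells was 157 and 169 on the iPS arrays and 229 and 234 on the MEF arrays. Lox was thus high in both MEF channels, detected in all 4 ES channels and not well above background in either iPS channel, with no overlap between groups. Lox was at least 281-fold lower in iPS cells than in MEFs when the red channels were set against each other. The fitted log2 ratio, which passes through the ES channel, was -7.86 ± 0.101 (limma adjusted p = 4.59e-09), a smaller difference of 232-fold. Lox was at least 3.33-fold lower in iPS than in ES cells (-1.92 ± 0.072, adjusted p = 3.06e-07). In MEFs it was 61.2-fold higher than in ES cells (5.94 ± 0.072, adjusted p = 3.74e-09). The order of the levels was therefore MEFs above ES cells above iPS cells, and every step passed the test.

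Loxl1, which is needed to maintain elastic fibres in mice, had red signals of 308 and 287 in iPS cells and of 27100 and 22600 in MEFs. ES cells gave 368 and 310 in green on the iPS arrays and 570 and 568 on the MEF arrays. Unlike the Lox probe, the Loxl1 probe was well above background in every channel. Loxl1 was 40.7-fold lower in iPS cells than in MEFs (-5.35 ± 0.074, adjusted p = 5.36e-09) and 24.6-fold higher in MEFs than in ES cells (4.62 ± 0.052, adjusted p = 3.74e-09). The iPS and ES levels differed by 1.65-fold (-0.72 ± 0.052, 95% interval -0.85 to -0.60, adjusted p = 9.5e-06), which was below ES cells on both arrays but short of the 2-fold required for a call.

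Loxl2, which also acts on collagen of basement membranes, had red signals of 255 and 258 in iPS cells and of 27200 and 26000 in MEFs at its brighter probe. The green signal from ES cells was 694 and 675 on the iPS arrays and 960 and 998 on the MEF arrays. All channels were above background and the iPS and MEF signals did not overlap. Loxl2 was 56.2-fold lower in iPS cells than in MEFs (-5.81 ± 0.085, adjusted p = 6.38e-09) and 3.64-fold lower than in ES cells (-1.86 ± 0.060, adjusted p = 1.49e-07). It was 15.5-fold higher in MEFs than in ES cells (3.95 ± 0.060, adjusted p = 5.72e-09). The dimmer probe gave -5.53, -1.64 and 3.90 for the same comparisons, so the probes of Loxl2 gave the same calls.

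Loxl3, which carries scavenger receptor domains as Loxl2 and Loxl4 do, was detected only in MEFs among the 3 cell types. Its red signal was 53.3 and 56.2 in iPS cells, against 674 and 641 in MEFs. Its ES signal lay between 25.9 and 30.6 in green and was not well above background on any array. Loxl3 was at least 7.86-fold lower in iPS cells than in MEFs (-3.07 ± 0.103, adjusted p = 1.57e-07), and at least 7.23-fold higher in MEFs than in ES cells (2.85 ± 0.073, adjusted p = 3.85e-08). No fold is given between iPS and ES cells, where neither level was measured.

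Loxl4, another enzyme of the scavenger receptor group, had the smallest fitted ratio of MEFs over ES cells among the 5 enzymes. At its brighter probe the red signal was 56.6 and 64.1 in iPS cells, not well above background, and 410 and 351 in MEFs. The green ES signal was 81.9 and 87.3 on the iPS arrays and 81.9 and 76.7 on the MEF arrays, above background on all. Loxl4 was at least 4.58-fold lower in iPS cells than in MEFs (-2.35 ± 0.070, adjusted p = 9.26e-08), and at least 2.01-fold lower than in ES cells (-1.12 ± 0.050, adjusted p = 7.71e-07). It was 2.34-fold higher in MEFs than in ES cells (1.23 ± 0.050, adjusted p = 3.46e-07). The dimmer Loxl4 probe had the same directions with smaller sizes (-1.33, -0.50 and 0.82), and only its difference between iPS cells and MEFs was called. With the mean of both probes the call for iPS over ES cells was lost at -0.81, and that for MEFs over ES cells remained at 1.03 (adjusted p = 1.59e-06).

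**Figure D2:**
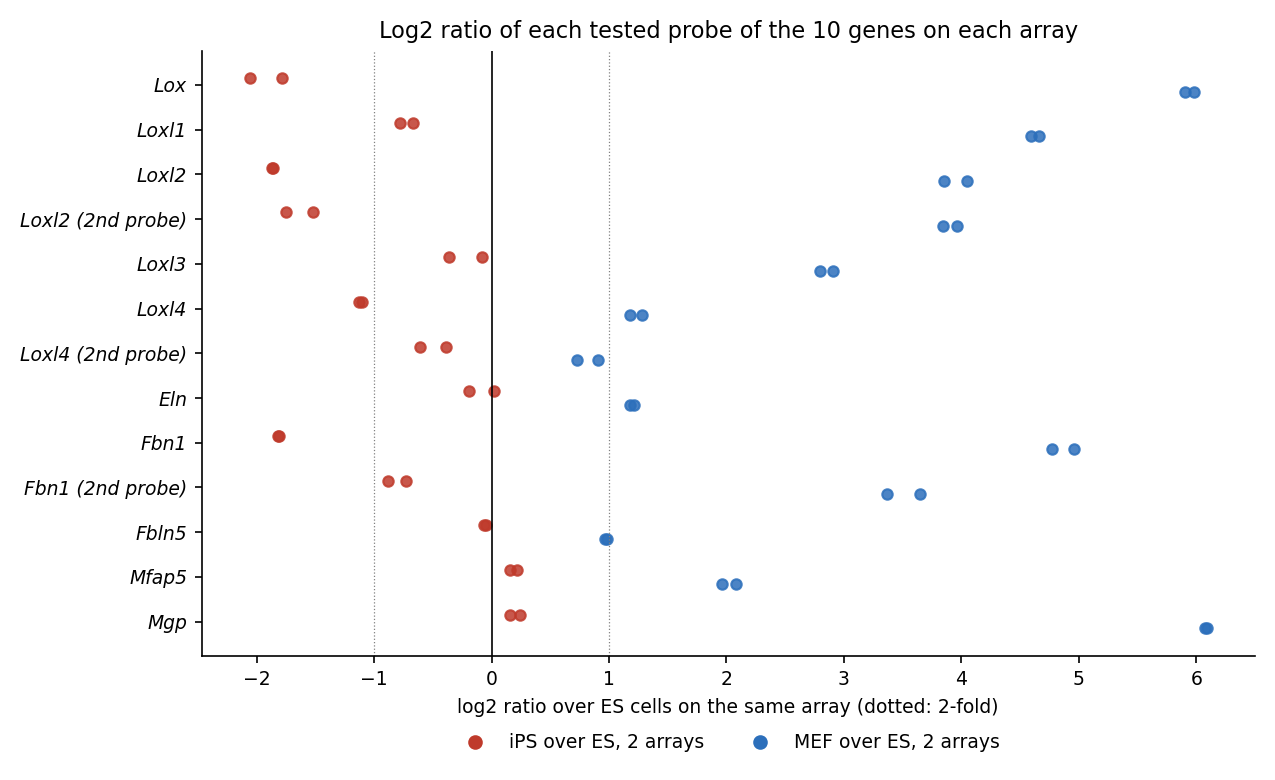
Log2 ratio of red over green (x axis) on each array for the 13 tested probes of the 10 genes (y axis), with iPS over ES cells in red and MEF over ES cells in blue; each point is 1 array and dotted lines mark 2-fold. The MEF points of a probe lie to the right of its iPS points for all 13 probes, and the iPS points of Eln, Fbln5, Mfap5 and Mgp lie near 0.

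Of the microfibril genes, Fbn1 encodes fibrillin-1, the main structural protein of microfibrils. At the brighter probe its red signal was 117 and 135 in iPS cells and 18400 and 13600 in MEFs. ES cells gave 311 and 318 in green on the iPS arrays and 292 and 317 on the MEF arrays, so the ES level was nearly the same on all 4 arrays. Fbn1 was 102-fold lower in iPS cells than in MEFs (-6.68 ± 0.083, adjusted p = 4.52e-09) and 3.52-fold lower than in ES cells (-1.81 ± 0.059, adjusted p = 1.53e-07). It was 29.1-fold higher in MEFs than in ES cells (4.86 ± 0.059, adjusted p = 3.74e-09). A dimmer probe nearby was not well above background in iPS cells and gave at least 20.1-fold lower in iPS cells than in MEFs (-4.32 ± 0.107). Its ratio of iPS over ES cells was -0.81 ± 0.076 and was not called.

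Mfap5, a microfibril-associated glycoprotein, had red signals of 138 and 170 in iPS cells and of 776 and 673 in MEFs. Green ES signals were 66.8 and 84.1 on the iPS arrays and 92.3 and 92.3 on the MEF arrays, and every channel was above background. The gene was 3.55-fold lower in iPS cells than in MEFs (-1.83 ± 0.074, adjusted p = 4e-07) and 4.05-fold higher in MEFs than in ES cells (2.02 ± 0.052, adjusted p = 4.06e-08). The iPS level exceeded the ES level by 1.14-fold (0.19 ± 0.052, 95% interval 0.06 to 0.31, adjusted p = 0.0125), short of a call.

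Eln encodes tropoelastin, the soluble precursor of the elastic core. Its red signal was 73.8 and 78.7 in iPS cells, above background on the second array only, and 259 and 210 in MEFs. The green ES signal ranged from 34.5 to 44.7 and was above background on all 4 arrays. Eln was 2.42-fold lower in iPS cells than in MEFs (-1.28 ± 0.087, adjusted p = 6.64e-06) and 2.29-fold higher in MEFs than in ES cells (1.19 ± 0.062, adjusted p = 1.24e-06). Between iPS and ES cells no difference was called (-0.08 ± 0.062, 95% interval -0.23 to 0.06, adjusted p = 0.252), and the arrays lay on either side of 0 at -0.19 and 0.02.

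Fbln5, a fibulin that binds elastin and microfibrils, gave 54.5 and 50.6 in red in iPS cells, not well above background, and 149 and 122 in MEFs. ES signals were 17.8 to 20.2 in green and not well above background on any array, so MEFs were again the only cells with a measured level. Fbln5 was called lower in iPS cells than in MEFs, with a bound of at least 1.87-fold (-1.03 ± 0.065, adjusted p = 4.09e-06). Against ES cells the MEF ratio of 0.98 ± 0.046 (at least 1.86-fold, adjusted p = 7.33e-07) was just short of 2-fold and not called. Another Fbln5 probe was not well above background in any RNA and was not tested.

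Mgp encodes matrix Gla protein, an inhibitor of calcification in arteries and cartilage. Its red signal was 57.8 and 56.7 in iPS cells, not well above background, against 9710 and 8400 in MEFs. ES cells gave 21 and 19.4 in green on the iPS arrays, not well above background, and 52.2 and 54.7 on the MEF arrays, above it. The MEF and iPS signals were far apart, and ES RNA itself read differently next to the 2 cell types. Mgp was at least 101-fold lower in iPS cells than in MEFs when the red channels were set against each other. The fitted log2 ratio was -5.89 ± 0.069 (adjusted p = 4.06e-09), a 59.1-fold difference, since the fit subtracts ratios over ES cells and the normalized ES channel was 0.84 ± 0.066 higher on the MEF than on the iPS arrays. Mgp was 67.8-fold higher in MEFs than in ES cells on the MEF arrays (6.08 ± 0.048, adjusted p = 3.74e-09). No fold is given between iPS and ES cells.

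Against MEFs, the iPS clone had less RNA of every enzyme and fibre protein of the set. All 10 genes were called lower in iPS cells, where 18.8% of 17620 genes represented by their brightest probe were called lower, 17% higher and 35.8% in either direction (33.1% of probes). The red signals of the 10 genes, before normalization, were lower on both iPS arrays than on both MEF arrays. The share of all genes separated in this way is not given here, so the count is a description only. Over all gene probes the median red signal was 113 and 118 on the iPS arrays and 134 and 119 on the MEF arrays. The fitted log2 ratios ran from -7.86 for Lox to -1.03 for Fbln5, with a median of -4.21 against 0.03 over all genes, and a median of -4.16 with the 5 genes dim in iPS cells set at their bounds. The adjusted p of the 10 calls lay between 4.06e-09 and 6.64e-06.

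Against ES cells, the iPS clone was lower in 4 of the 10 genes, Lox, Loxl2, Loxl4 and Fbn1, and higher in 0. The background was 11.8% of genes called lower, 9.08% called higher and 20.9% in either direction (18.7% of probes). Loxl1, Eln and Mfap5 were measured and not called, and Loxl3, Fbln5 and Mgp had no level well above background in iPS cells or, on these arrays, in ES cells. The median log2 ratio of the 10 was -0.47, against 0.01 over all genes. It includes the fitted ratios of the 3 genes dim in both cell types, for which no fold is given. The 4 called genes were 3 enzymes and the fibrillin, and none of Eln, Fbln5 or Mfap5 was called. Mfap5 and Mgp had ratios above 0 with limma adjusted p of 0.0125 and 0.00727, but their sizes of 0.19 and 0.20 were far below 2-fold and Mgp was dim in both channels.

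In MEFs, 9 of the 10 genes were called higher than in ES cells and Fbln5 was not called. The background was 13.8% of genes called higher, 13.6% called lower and 27.4% in either direction (25.2% of probes). Log2 ratios ran from 0.98 for Fbln5 to 6.08 for Mgp, with a median of 3.40 against -0.01 over all genes. Over all tested probes 50.6% of the calls between MEFs and ES cells and 42.8% of those between iPS and ES cells were higher, against 70% and 61.5% with median centring in place of loess, while no member call turned direction.

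**Figure D3:**
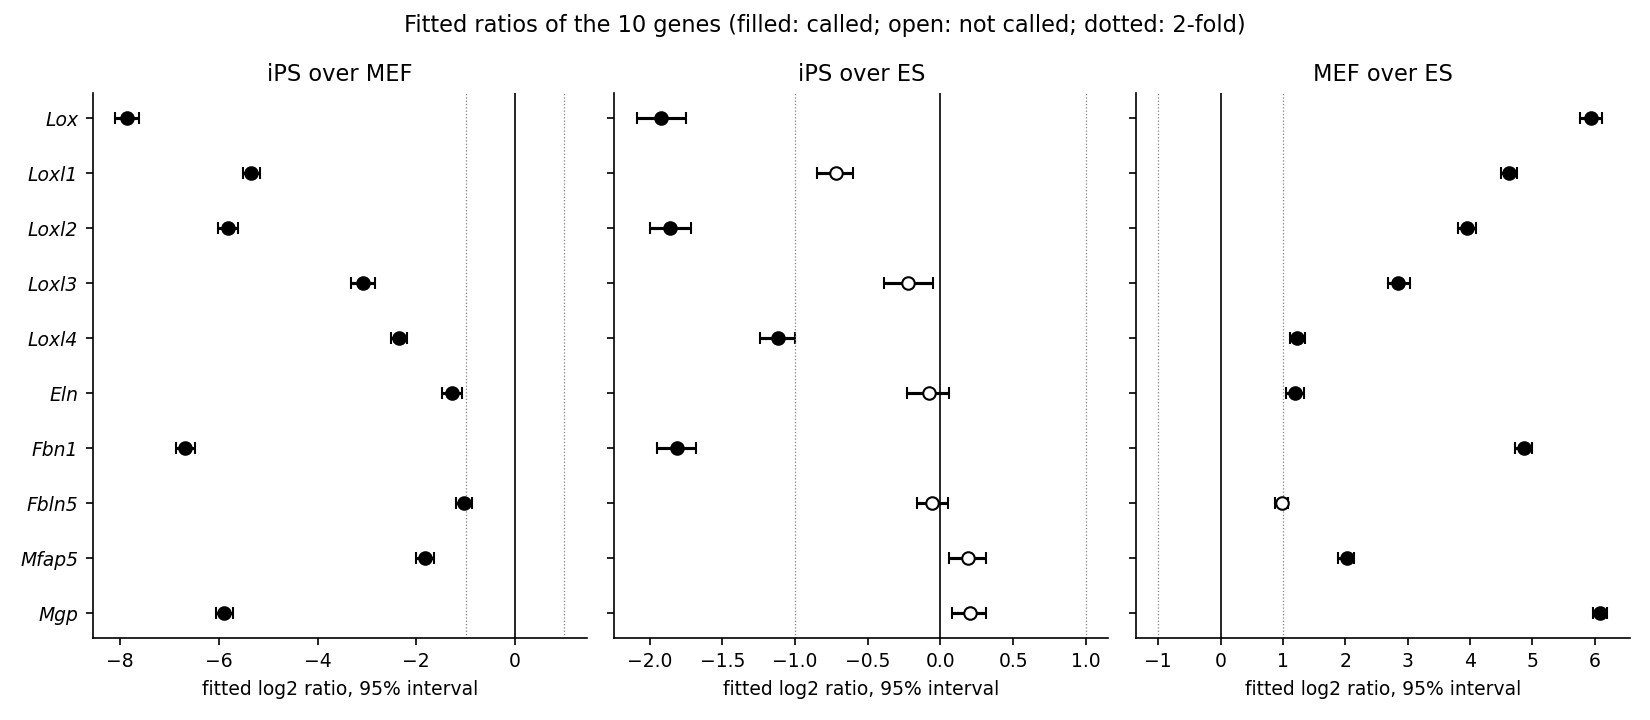
Fitted log2 ratio (x axis) of each of the 10 genes (y axis) for iPS over MEF, iPS over ES and MEF over ES; bars are 95% intervals of the limma fit, filled points were called and dotted lines mark 2-fold. All 10 points are filled and left of 0 for iPS over MEF, 4 are filled and left of 0 for iPS over ES, and 9 are filled and right of 0 for MEF over ES.

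RNA of the same ES line was labelled in green on all 4 arrays, so its normalized signal can be compared between them. This comparison was added after the values were seen and uses limma over 24874 probes with 2 arrays on each side. Next to MEF RNA, the ES signal of Mgp was higher than next to iPS RNA by 0.84 ± 0.066 on the log2 scale (adjusted p = 0.000198). Loxl1 was higher by 0.67 ± 0.084 (adjusted p = 0.00374), the brighter Loxl2 probe by 0.51 ± 0.054 (adjusted p = 0.00128) and Lox by 0.46 ± 0.056 (adjusted p = 0.00294), each on both MEF arrays. The dimmer Loxl2 probe differed by 0.18 ± 0.061 (adjusted p = 0.145). Fbn1, whose MEF signal was also high, differed by -0.08 ± 0.051 (adjusted p = 0.331). Of the 13 tested member probes 0 were called at 2-fold, where the background was 0.121% of all probes. At any size 4 had an adjusted p under 0.05, against 2.34% of all probes, and 5 had an unadjusted p under 0.05, as 23.2% of all probes did. In the absolute size of this difference the Mgp probe stood at the 99.8th percentile of all tested probes, the Loxl1 probe at the 99.7th and the brighter Loxl2 probe at the 99.4th. The ratios of iPS cells over MEFs pass through these channels. The cause was not tested.

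The calls of the 10 genes depended on how the local background was modelled. When the background model was fitted with the marked outlier spots included, 0 of the 10 genes were called by limma in any of the 3 comparisons. For iPS over MEF, iPS over ES and MEF over ES, 5, 1 and 4 of the 10 had an unadjusted p under 0.05, where 8159, 10109 and 2392 of all 24874 probes had one and 2644, 3292 and 0 probes were called. The iPS over ES ratios of the called genes kept their sizes, with Lox at -1.91, Loxl2 at -1.86 and Fbn1 at -1.81 and the median of the 10 at -0.47. The MEF over ES ratios were smaller, with Lox at 3.80, Mgp at 3.41, Loxl1 at 3.10 and Fbn1 at 2.98 and a median of 2.13, and the median for iPS over MEF was -2.48. The first MEF array held 14 spots with a local background above 500, all marked by the scanner software. Without that array 10, 4 and 9 genes were called, the same counts as with it. That fit already kept marked spots out of the background model, so it cannot say whether these spots account for the 0 calls. Their part in the lost calls was not tested.

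The sizes also differed in the authors' deposited log ratio, whose background subtraction and dye normalization are both the scanner software's and which has no offset of 50. In that ratio the log2 ratio of MEFs over ES cells was 4.43 for Fbln5, 5.63 for Loxl3 and 2.30 for Eln. The same deposited ratio of iPS over ES cells was -5.80 for Lox and -4.10 for Loxl4, and Loxl3 was called at -1.75 although neither of its levels was well above background. For Mgp and Fbln5 the deposited ratio of iPS over ES cells was 0.00. For Loxl1 and Fbn1, which were bright in MEFs, the deposited ratios of MEFs over ES cells of 4.75 and 5.05 were near the fitted values of 4.62 and 4.86. Mgp, also bright in MEFs, was farther apart, at 7.47 against 6.08.

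**Figure D4:**
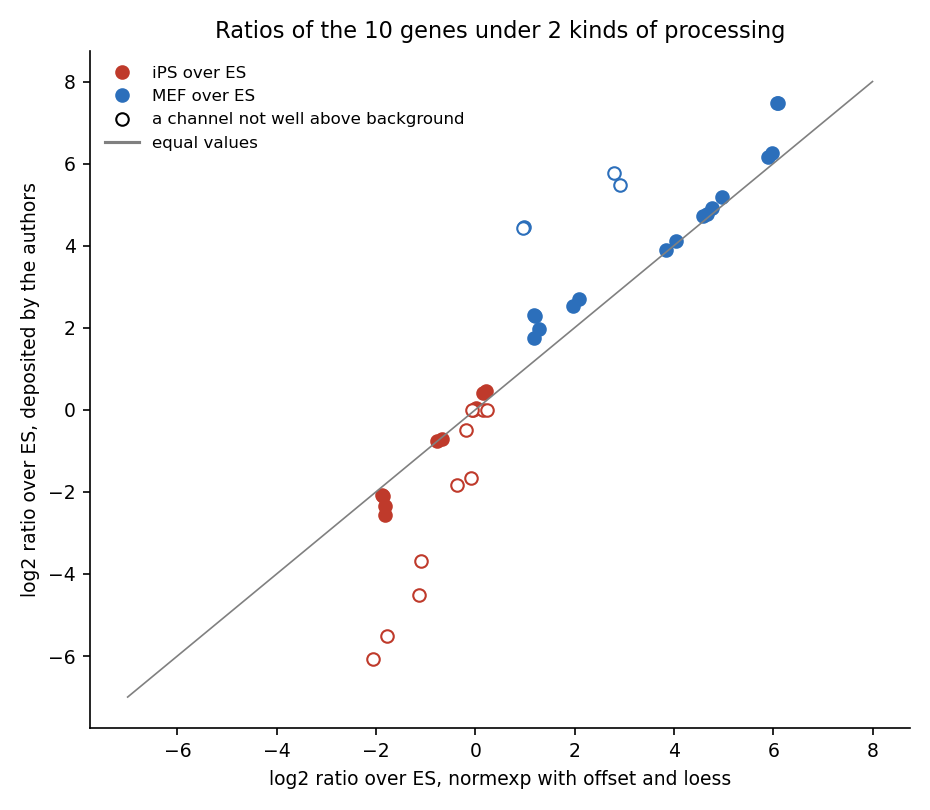
Deposited log2 ratio over ES cells (y axis) against the ratio after normexp with an offset and loess (x axis) for the brightest probe of each of the 10 genes on each of the 4 arrays, with iPS arrays in red and MEF arrays in blue; open points had a channel not well above background and the line marks equal values. The points farthest from the line are open, such as those of Fbln5 (4.43 against 0.98 over both MEF arrays). The points of Loxl1 and Loxl2 lie near the line. Some filled points lie off it, such as those of Mgp on the MEF arrays (7.47 on both, against 6.07 and 6.09).

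The other microfibril and elastic fibre genes moved in the same directions against MEFs, with exceptions. Of 18 such genes 14 were tested, and in iPS cells 12 were lower than in MEFs, 1 was higher and 1 was not called (median -2.91). Efemp1, which encodes fibulin-3, was lowest at -8.96 ± 0.074, and Efemp2, the fibulin-4 needed for elastin assembly, was at -6.10 ± 0.070. The latent TGF-beta binding protein Ltbp4 was the gene that was higher (1.36 ± 0.065). Against ES cells 0 were higher, 7 were lower and 7 were not called in iPS cells (median -1.06). Efemp1 was lower by 42.5-fold (-5.41 ± 0.052), and Mfap2, a microfibril glycoprotein related to Mfap5, stood at -2.99 ± 0.047 at its brightest probe and at -0.46 ± 0.047, not called, at the other. In MEFs 12 were higher than in ES cells and 2 lower (median 1.94). Ltbp2 was highest at 4.01 ± 0.069, and Ltbp3 stood at 3.94 ± 0.052 with a second probe at 1.45 ± 0.064. Ltbp4 (-1.59 ± 0.046) and Mfap3 (-1.26 ± 0.063, second probe -0.82 and not called) were the 2 lower genes.

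Genes that modify lysines or activate lysyl oxidases were mixed. Of 12 such genes 10 were tested, with 7 lower, 0 higher and 3 not called in iPS cells against MEFs (median -2.02). Periostin, Postn, a matrix protein that promotes the activation of Lox, was at least 115-fold lower with red set against red. Its fitted ratio through the ES channel was -6.69 ± 0.073, a 103-fold difference. Bmp1, the protease that cleaves the Lox propeptide, was lower at -4.68 ± 0.070 (other probe -2.75, called). Against ES cells 3 were lower in iPS cells, 1 was higher and 6 were not called (median -0.64). Bmp1 was lower at -3.20 ± 0.050 (other probe -1.23, called) and Postn by at least 3.74-fold. The copper transporter Atp7a, which supplies copper to these enzymes, was higher at 1.04 ± 0.049, but its other probe gave 0.14 and was not called. In MEFs 6 were higher than in ES cells, 0 were lower and 4 were not called (median 1.29), led by Postn at 4.70 ± 0.052 and the Bmp1-related protease Tll1 at 1.92 ± 0.048.

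Proteases that degrade elastin were tested for 5 of 8 genes. In iPS cells 4 were lower than in MEFs and 1 was not called (median -3.77), led by Mmp14 (-4.71 ± 0.067, other probe -3.67) and Mmp2 (-3.95 ± 0.067). Against ES cells Mmp14 (-2.63 ± 0.047, other probe -1.56) and Mmp2 (-2.25 ± 0.048) were lower in iPS cells and 3 genes were not called (median -0.89). In MEFs 4 were higher than in ES cells and 1 was not called (median 2.08), with Ctsk, cathepsin K, at 3.74 ± 0.051 and Ctss, cathepsin S, at least 4.52-fold higher.

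Mgp needs vitamin K-dependent gamma carboxylation to act, and 5 genes of that system or carrying its product were tested. In iPS cells 3 were lower than in MEFs, 1 was higher and 1 was not called (median -1.07). The carboxylase Ggcx was at -1.25 ± 0.092 and the secreted Gla protein Gas6 at -4.21 ± 0.085. Bglap, the bone Gla protein osteocalcin, was higher in iPS cells, by 2.60 ± 0.068 over MEFs and by 2.83 ± 0.048 over ES cells. The mouse has near-identical copies of Bglap, so the gene behind that probe is uncertain. Gas6 was lower in iPS than in ES cells at -1.03 ± 0.060, and 3 genes were not called (median 0.25). In MEFs 3 were higher than in ES cells and 2 were not called (median 1.30), led by Gas6 (3.18 ± 0.060) and the vitamin K reductase Vkorc1 (1.32 ± 0.046).

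**Figure D5:**
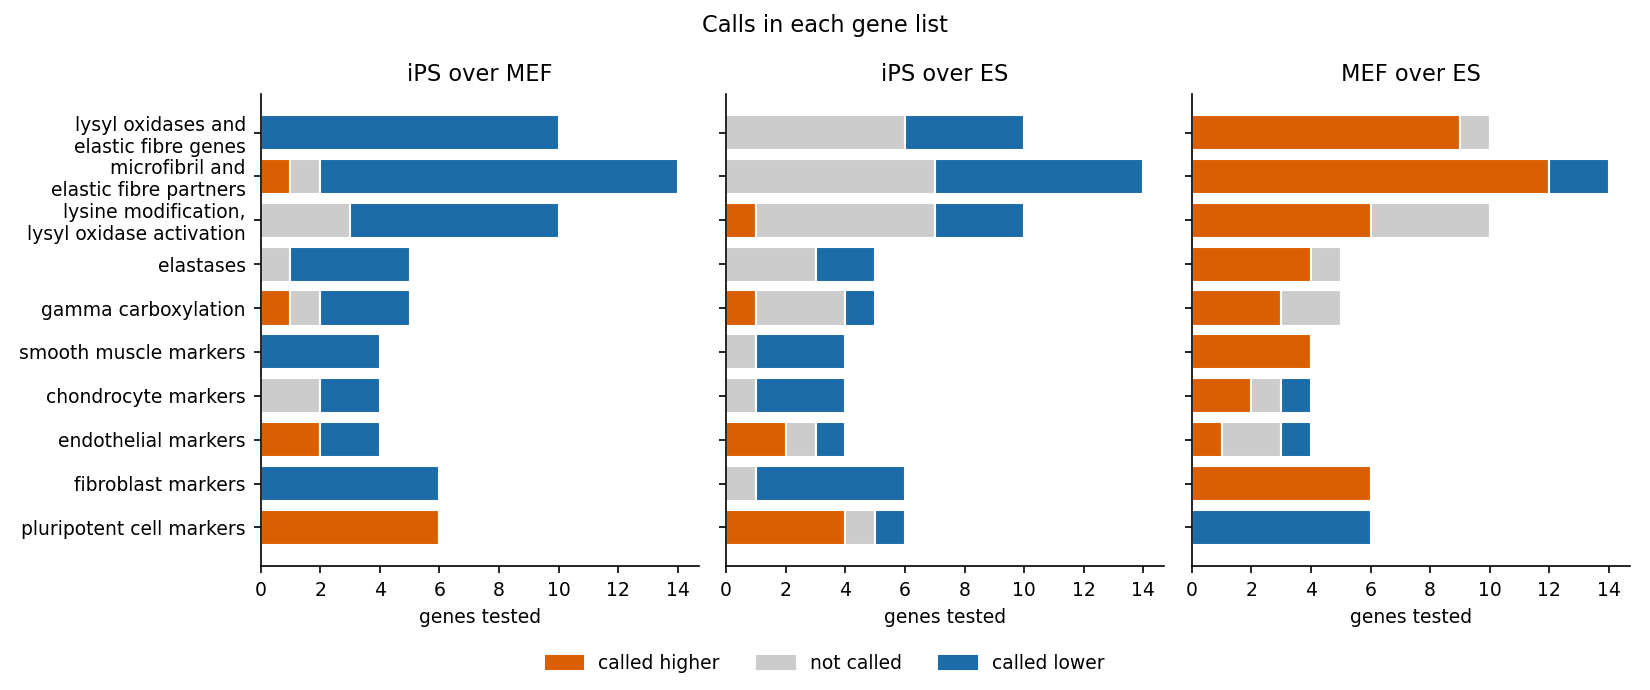
Number of tested genes (x axis) called higher, not called or called lower in each gene list (y axis) for iPS over MEF, iPS over ES and MEF over ES. The 10 genes described here are the top bar, with 10 lower, 4 lower and 9 higher genes in the 3 panels, and the fibroblast and pluripotent cell markers at the bottom run in opposite directions.

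Cell type markers moved with these genes. All 6 fibroblast markers were lower in iPS cells than in MEFs and higher in MEFs than in ES cells, and 5 of 6 were lower in iPS than in ES cells. Their summed normalized signal was 1950 on both iPS arrays and 489000 and 478000 in MEFs, and all 6 were above background in ES cells on every array. Col1a1, a fibrillar collagen chain that lysyl oxidases cross-link, stood at -10.09 ± 0.067 for iPS over MEF and -5.77 ± 0.048 for iPS over ES at its brightest probe. Its other probes gave -6.47 and -3.85 for iPS over MEF, both called, and -2.98 and -0.49 for iPS over ES, with the last not called. The smooth muscle markers had 4 of 6 tested, all lower in iPS cells than in MEFs and 3 lower than in ES cells, with sums of 18400 to 21900 in iPS cells and 513000 to 548000 in MEFs. Acta2, smooth muscle actin, was at -6.17 ± 0.089 for iPS over MEF, -3.25 ± 0.063 for iPS over ES and 2.92 ± 0.063 for MEF over ES at its brightest probe. The 4 other Acta2 probes ran from -8.86 to -0.76, from -5.78 to -0.26 and from 0.50 to 3.09 in these comparisons. The probe nearest 0 was not called in any of them, and another, at -0.99, was not called for iPS over ES. The ES sums differed by array group in the opposite sense to the ES signal of Mgp, Loxl1, Loxl2 and Lox. The fibroblast sums were 22500 and 21900 on the MEF arrays against 32600 and 31600 on the iPS arrays. The smooth muscle sums were 138000 and 137000 on the MEF arrays against 262000 and 258000 on the iPS arrays. These sums follow the brightest genes, Col1a1, Col1a2, Acta2 and Tagln, whose ES levels were lower on the MEF arrays. Thy1 and Col3a1 went the other way, with ES log2 levels of 10.91 and 9.76 on the MEF arrays against 9.06 and 9.34 on the iPS arrays. The ES levels of Dcn, Pdgfrb, Myh11 and Des differed less. Set directly in red, the normalized log2 level of Acta2 was 13.10 in iPS cells and 18.38 in MEFs, and that of Col1a1 was 8.53 in iPS cells and 17.79 in MEFs. The fitted ratios of Acta2 and Col1a1, which pass through the ES channel, were larger in size than these differences. For Thy1 the fitted ratio of iPS over MEF, -3.77 ± 0.082, was smaller in size than the red difference between 9.47 in iPS cells and 15.09 in MEFs. The cause was not tested. All 6 pluripotent cell markers were higher in iPS cells than in MEFs and lower in MEFs than in ES cells. Between iPS and ES cells 4 were higher, led by Nanog at 2.27 ± 0.049, and Pou5f1 was lower at -1.35 ± 0.078. The cells thus carried the markers of their labels, and ES RNA also carried fibroblast and smooth muscle markers, whose part in the ratios over ES cells was not tested.

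Chondrocytes and endothelial cells are other known sources of Mgp. The called chondrocyte markers were all lower in iPS cells but went both ways between MEFs and ES cells. The endothelial markers went both ways in every comparison. The chondrocyte list had 4 of 6 genes tested, with 2 lower in iPS cells than in MEFs, 3 lower than in ES cells and, in MEFs, 2 higher and 1 lower than in ES cells. Their sums were 1320 to 1440 in iPS cells, 4730 to 5270 in MEFs and 2410 to 2610 in ES cells, with Col2a1 the brightest gene (normalized log2 level 12.08 in MEFs). Sox9, a chondrocyte regulator, was not well above background in iPS cells and at least 6.29-fold lower there than in MEFs, with its other probes also called lower (-3.14 and -1.21). The endothelial list also had 4 of 6 tested, with sums of 905 to 922 in iPS cells, 3790 to 3990 in MEFs and 2540 to 2570 in ES cells. These sums mostly follow single genes and do not rank the list. They were Emcn in MEFs (normalized log2 level 11.54) and Kdr in ES cells (11.14 on the MEF arrays and 11.15 on the iPS arrays). The defining endothelial genes Cdh5 and Tie1 were not well above background in any RNA. In iPS cells 2 of the 4 were higher and 2 lower than in MEFs, and 2 were higher, 1 lower and 1 not called against ES cells, with Pecam1 at 2.09 ± 0.046 and the receptor Kdr at -4.10 ± 0.049. In MEFs 1 was higher than in ES cells, 1 was lower and 2 were not called, with Emcn, endomucin, at 5.07 ± 0.061 and Kdr at -1.54 ± 0.049. The part of these cell types in the ratios of the 10 genes was not tested. The limma adjusted p of each call named in these gene lists was 9.77e-06 or lower, apart from the Sox9 probe at -1.21 (adjusted p = 0.000211).

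The genes nearest to 3 members in their 4 ratios over ES cells were found among 17619 other genes by Euclidean distance on the log2 scale. Lox was followed by the collagen gene Col5a2 at 1.23, Thbd, thrombomodulin, at 1.36 and Fbn1 at 1.55. Mgp was followed by Clca3a1 at 0.459, Ogn, the matrix proteoglycan osteoglycin, at 0.562 and Il1rl1, the interleukin-33 receptor, at 0.636. Eln was followed by Golga3 at 0.0633, Ccdc37 at 0.0897 and Gpr108 at 0.109. The nearest gene was thus farther from Lox than from Mgp, and farther from Mgp than from Eln.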

How the data were processed

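Per the file headers, the authors read the spots with Agilent Feature Extraction 10.5.1.1 at 5 microns. The deposited mean and background intensity of each spot were not normalized. That software also wrote the deposited log10 ratio (red over green, LOWESS smoothing factor of 0.25), and the series' own values were equal to it. Here, spots marked as outliers (feature or background) and control spots were left out. Normexp (offset 50, fitted over the remaining spots) and loess (span 0.3) were applied with limma 3.58.1 in R 4.3.3, on files read with version 1.17.8 of data.table, with a mean taken over the spots of a probe. The filter kept 27725 of 41174 gene probes, those that passed the scanner's background test for 1 or more of the RNAs on all its arrays. The fit covered the 24874 of these with an unmarked spot on all 4 arrays, 13 of the 14 member probes among them. Each group had its own coefficient, with 2 residual and 4.91 prior degrees of freedom. A gene is represented by its brightest tested probe, and all member probes are given. From each gene list, the 2 highest and 2 lowest called genes per comparison were eligible to be named. Symbols of 24375 probes came from accessions matched to RefSeq genes.

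The 10 genes, the gene lists and the markers were chosen with earlier results of these data known. In simulated normalized ratios with 200 of 24874 probes changed, 97.5% of log2 1.5 changes were recovered for MEF over ES and 92.5% for iPS over MEF, with 0 false calls. The simulation used the spread between the arrays of a group and skipped background correction and normalization. It therefore does not test the background model on which the calls depended. Probes printed 10 times differed between the arrays of a group for 43% of 244 probes in MEFs and 18.4% of 245 in iPS cells, where chance gives 5%. The arrays of a group thus differed by more than the noise between spots. This does not show whether their RNA or cultures were separate. The number of arrays limits the precision. Alternatives covered normalization, background, filters, probe choice, each array left out and the replicate number as a block. Deviations of same-numbered arrays correlated at -0.11, so the numbers were not taken to pair the arrays.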

Additional observations from a re-analysis of the deposited data

How the results depend on the processing

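The calls of the 10 genes held with median centring, apart from Fbln5 in MEFs over ES cells, which was called at 1.04. They also held with Aquantile, no filter on dim probes and 1 probe per gene. Aquantile leaves the log2 ratios as they are, so its result was fixed in advance. No filter and 1 probe per gene changed only the p-values of the same ratios. Leaving out each array in turn gave 10, 4 and 9 called genes for iPS over MEF, iPS over ES and MEF over ES throughout, and 8397 to 8517, 4713 to 4828 and 6370 to 6582 called probes, against 8234, 4652 and 6269. The ratio of Eln for iPS over ES ranged from -0.19 to 0.02 and changed sign without the first iPS array. With normexp fitted over all spots, 0 of the 10 genes were called in each comparison, and 2644 probes for iPS over MEF, 3292 for iPS over ES and 0 for MEF over ES (2392 at an unadjusted p under 0.05). With outlier spots kept the counts were 0 genes in each comparison, 3086 probes for iPS over MEF, 3702 for iPS over ES and 200 for MEF over ES. With the deposited log ratio 10, 5 and 10 genes and 12486, 8405 and 10354 probes were called. With each channel of each array required to pass the background test only 4 genes remained, of which 4, 2 and 4 were called. The replicate block gave 8235 probes and 10 genes for iPS over MEF. A crossed replicate block, chosen after seeing the data because of the correlation of -0.11, also gave 8235 probes and 10 genes for iPS over MEF. With the mean over probes Loxl4 lost its call for iPS over ES at -0.81. Signal over background limits Loxl3, Fbln5 and Mgp between iPS and ES cells. Of 392 recomputed log2 ratios of the 10 genes, 341 kept direction and side of the threshold, 47 lost the call, 3 gained it and 1 changed sign. The 341 include settings, such as Aquantile, that leave the ratios unchanged.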
